A study of Mus musculus with 8 samples.

Results

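The miR-30 family was read on the arrays by 15 of 821 probe rows, all those whose name reduces to mir-30a, b, c, d or e once the species prefix, arm, copy number and form suffix are removed. These rows gave 8 of 433 mature names (12 rows) and 3 of 274 precursor names (3 rows). All 5 stems, mmu-mir-30a, mmu-mir-30b, mmu-mir-30c, mmu-mir-30d and mmu-mir-30e, had at least 1 mature name. The mature names were miR-30a-5p, miR-30a-3p, miR-30b, miR-30c-1, miR-30c-2, miR-30d, miR-30e-5p and miR-30e-3p. The precursor names were miR-30c-1, miR-30c-2 and miR-30d. All were measured in LSK cells, the lineage-negative, Kit-positive and Sca1-positive fraction of mouse bone marrow that holds stem and early progenitor cells, with 1 array per mouse.

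The mice were 10-week-old C57BL/6 females in which both Tsc1 alleles were floxed (Tsc1f/f). The 4 Ctrl mice lacked Cre (Mx1-Cre-) and the 4 Tsc1 cKO mice, their littermates, carried it (Mx1-Cre+). All 8 received 400 µg of pIpC (2 mg/ml) in 7 injections given on alternate days, and cells were sorted 10 days after treatment. Mx1-Cre is driven by an interferon-inducible promoter that acts in many cell types and not in LSK cells alone, and pIpC raises interferon in both groups. The design text also speaks of conditional Raptor alleles, which no sample's genotype lists, and grouping followed the genotypes. Loss of Tsc1 was not analysed here, since the probes read miRNAs.

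miRNAs of this family guide Argonaute proteins to messenger RNAs that pair with the seed, the stretch near the 5′ end of the mature strand. Each hairpin can give a product from its 5′ arm, which carries the family seed, and another from its 3′ arm. Several members are among the miRNAs that the transcription factor Myc represses, and in human cells miR-30a lowers Beclin 1, a protein needed for autophagy. Tsc1 restrains mTORC1, the kinase complex that couples cell growth to nutrients. The question put to these arrays is how mTORC1 acts on miRNA production in such cells.

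The mature sequences show which probes had related targets on the array. They are from RefSeq (GRCm38.p6), are written 5′ to 3′, and carry the seed (bases 2 to 8) in capitals. RefSeq sequences were at hand for 4 of the 6 member genes, those other than Mir30b and Mir30d.
miR-30a-5p: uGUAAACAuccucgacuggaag
miR-30c-5p: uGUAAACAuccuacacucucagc
miR-30e-5p: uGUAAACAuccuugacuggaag
miR-30a-3p: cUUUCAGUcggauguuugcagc
miR-30e-3p: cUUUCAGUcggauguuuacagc
miR-30c-1-3p: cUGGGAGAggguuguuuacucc
miR-30c-2-3p: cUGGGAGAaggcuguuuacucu

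The 5′ arms shown shared the seed GUAAACA, which in the RefSeq table of 1679 mature names was otherwise found only in miR-384-5p (4 names in all, 0.238%). That table held no sequence of miR-30b or miR-30d, so the count leaves them out. The 3′ arms of miR-30a and miR-30e shared the seed UUUCAGU, and those of both miR-30c copies shared UGGGAGA. Counted from 1 at the 5′ end, miR-30a-5p and miR-30e-5p differed by a single base (C13U, the miR-30a base first), and so did their 3′ arms (G18A). miR-30c-5p matched miR-30a-5p at 17 of 22 bases, with all differences between positions 13 and 20. The sequences of the array probes were not used here.

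The genes form 3 neighbouring pairs. Mir30a (chr1:23272269-23272339, plus strand) and Mir30c-2 (chr1:23291701-23291784, plus strand) have no annotated gene between them. Mir30c-1 (chr4:120769534-120769622, minus strand) and Mir30e (chr4:120772606-120772697, minus strand) lie inside the span of Nfyc, which encodes a subunit of the transcription factor NF-Y. Mir30b and Mir30d are likewise next to each other. The hairpins of both miR-30c copies are shown because the arrays carry a mature and a precursor probe for each; capitals mark the miR-30c-5p strand, which is identical in both.
Mir30c-1: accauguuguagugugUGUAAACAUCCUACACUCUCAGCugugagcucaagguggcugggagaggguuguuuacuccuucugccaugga
Mir30c-2: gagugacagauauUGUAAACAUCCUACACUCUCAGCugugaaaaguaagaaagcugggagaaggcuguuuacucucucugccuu

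The deposited values are intensities on a linear scale. Many probes of an array share a low level, taken as its background (intensities of 24038 to 33328 over the 8 arrays, the mode of log2 values). A name is called bright where its mean over arrays exceeded that level by over 1 log2 unit, which held for 94 of 433 mature names (21.7%) and 34 of 274 precursor names (12.4%). Mice 1 and 2 of both groups had a higher background than mice 3 and 4, so values within each of these sets are given beside the pooled ones. Array Tsc1 cKO 4 stood apart: on that array alone 74 mature names exceeded its background by over 1 log2 unit, against 93 to 112 on each other array. Among 22 mature names of blood and LSK markers 10 were bright, against 0 of 3 erythroid, 0 of 10 stromal or endothelial and 1 of 25 names of other tissues. On these bulk samples, fewer cells of a kind and less RNA per cell cannot be told apart.

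In LSK cells 5 of the 8 mature names were bright, with means of 2.02 to 3.32 log2 units above background: miR-30a-5p, miR-30b, both miR-30c copies and miR-30d. The names miR-30b, miR-30c and miR-30d carry no arm in the files, so which arm these 4 probes read is not settled here. The 3′ arm probes miR-30a-3p (-0.07) and miR-30e-3p (0.03) lay at background, and so did miR-30e-5p (-0.49). No change with Tsc1 status was detectable for any of the 8, and the groups overlapped for each.

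**Figure D1:**
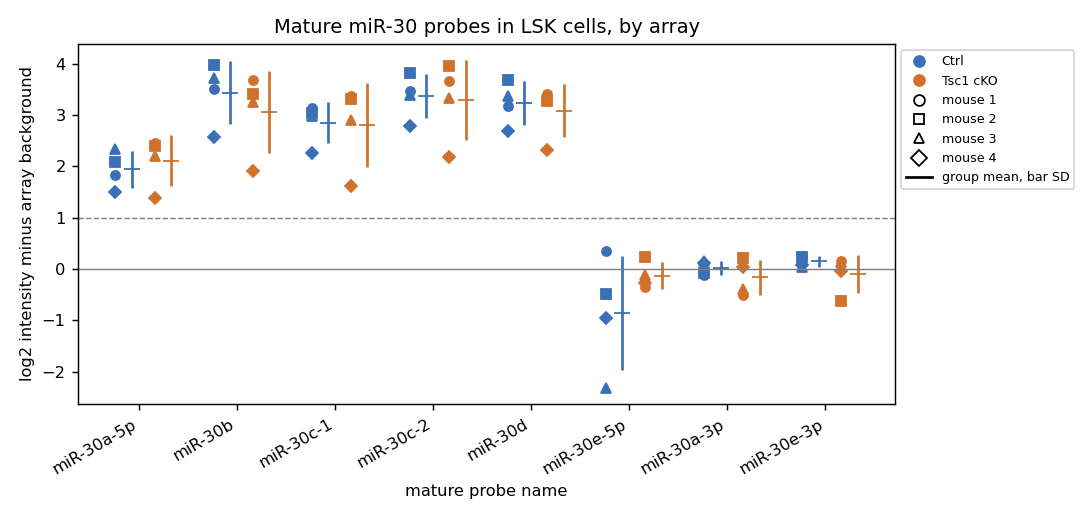
Log2 intensity of each mature miR-30 probe name minus the background of its array (vertical axis), by probe name (horizontal axis). Symbols are single mice, crosses with bars are group means with SD (n = 4), the solid line is background and the dashed line the limit for a bright name. The 5 bright names sit at means of 2.02 to 3.32 and their lowest symbol is Tsc1 cKO 4, while the other 3 lie about the background line.

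miR-30a-5p, read by 3 probe rows, had intensities of 118829, 138799, 128570 and 71932 in Ctrl 1 to 4. In Tsc1 cKO 1 to 4 they were 175739, 176579, 116389 and 62584. Both mice numbered 4 were lowest in their group, and the groups overlapped. The log2 means were 16.76 ± 0.43 in Ctrl and 16.90 ± 0.71 in Tsc1 cKO (SD, n = 4 each). The log2 fold change, Tsc1 cKO minus Ctrl here and throughout, was 0.14 (SE 0.36, 95% interval -0.66 to 0.94, adjusted p = 1.00 by limma). Within the brighter set (mice 1 and 2) it was 0.46, within the dimmer set (mice 3 and 4) -0.17, and leaving out Tsc1 cKO 4 gave 0.47. The 3 probe rows differed on an array by 0.02 to 0.63 log2 units (median 0.09), against a range of 1.496 between arrays, so most of the spread of this name lay between arrays and not between its probes.

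miR-30b and miR-30d, which in human melanoma act together to promote invasion, are encoded side by side. miR-30b had intensities of 376779, 513761, 333234 and 150884 in Ctrl 1 to 4 and 411045, 354698, 240768 and 89885 in Tsc1 cKO 1 to 4. miR-30d had 301861, 424323, 263576 and 164196 in Ctrl and 340533, 323960, 259125 and 119362 in Tsc1 cKO. Both probes were highest in Ctrl 2 and lowest in Tsc1 cKO 4, by factors of 5.72 and 3.55. miR-30b had the most negative log2 fold change of the bright members, -0.41 (SE 0.51, 95% interval -1.54 to 0.73, adjusted p = 1.00 by limma), from log2 means of 18.26 ± 0.75 in Ctrl and 17.85 ± 0.99 in Tsc1 cKO (SD, n = 4 each). It was -0.20 in the brighter and -0.61 in the dimmer set, and 0.06 once Tsc1 cKO 4 was left out. miR-30d, with log2 means of 18.06 ± 0.57 and 17.88 ± 0.70, had -0.18 (SE 0.39, 95% interval -1.04 to 0.69). Its values in the brighter and the dimmer set were -0.11 and -0.24, and leaving out Tsc1 cKO 4 gave 0.16.

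miR-30c, which in mouse liver lowers the lipid transfer protein Mttp, was read by a probe for each genomic copy. The 5p strands of the copies are identical and the 3p strands differ at 3 of 22 bases, and the files do not say which of them the probes read. The probe of copy 1 had intensities of 291098, 270618, 198643 and 122794 in Ctrl 1 to 4 and 334546, 329038, 189478 and 73409 in Tsc1 cKO 1 to 4. The probe of copy 2 had 365561, 463871, 266233 and 175368 in Ctrl and 409976, 516244, 255872 and 108707 in Tsc1 cKO. Within both groups both probes were higher in mice 1 and 2 than in mice 3 and 4, with mouse 4 lowest. The log2 means in Ctrl and Tsc1 cKO were 17.68 ± 0.57 and 17.59 ± 1.03 for copy 1 and 18.19 ± 0.61 and 18.08 ± 0.99 for copy 2 (SD, n = 4 each). The log2 fold changes were -0.08 (SE 0.48, 95% interval -1.16 to 0.99) for copy 1 and -0.11 (SE 0.48, 95% interval -1.18 to 0.96) for copy 2. Without Tsc1 cKO 4 they were 0.39 and 0.34. Between the brighter and the dimmer set the sign differed, with 0.24 and -0.41 for copy 1 and 0.16 and -0.37 for copy 2.

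miR-30e-5p did not rise above background in either group, although it differs from the bright miR-30a-5p by a single base. Its intensities were 42129, 23530, 5117 and 13202 in Ctrl 1 to 4 and 25349, 39084, 23448 and 19847 in Tsc1 cKO 1 to 4. Ctrl 3 lay 2.31 log2 units below the background of its array, and the Ctrl mice spread over 3.04 log2 units. The log2 fold change of 0.70 (SE 0.55, 95% interval -0.53 to 1.93) was -0.00 in the brighter and 1.39 in the dimmer set. It was 0.15 without Ctrl 3 and 1.16 without Ctrl 1. Both group means lay below background, at -0.85 in Ctrl and -0.13 in Tsc1 cKO.

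The 3′ arm probes lay at background on nearly every array. miR-30a-3p spanned 19233 to 38589 and miR-30e-3p 21610 to 39539, with the values of both groups interleaved. Their log2 differences were -0.21 (SE 0.24) and -0.27 (SE 0.24). The 3 probe rows of miR-30a-3p differed by up to 1.08 log2 units on an array (Tsc1 cKO 1), as much as the whole range of 1.00 between arrays.

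limma, fitted over all 433 mature names with Benjamini-Hochberg adjustment, called 0 of the 8 names at adjusted p under 0.05, against 0 of 433 in all (0%; lowest adjusted p = 0.605). At unadjusted p under 0.05 it gave 0 of the 8, against 19 of 433 (4.39%), 17 of them lower (3.93%) and 2 higher (0.462%) in Tsc1 cKO. The groups did not overlap for 0 of the 8, against 4 of 433 (0.924%). Of the 8 names 6 had a negative fold change (median -0.14), against 281 of all 433 (64.9%, median -0.04). Of the 5 bright names 4 were negative (median -0.11), against 76 of the 94 bright names (median -0.24). These signs depend on the scaling: as deposited 35.1% of all mature names were higher, but 47.3% after centring on array medians, 44.1% after setting arrays to background and 57.5% after quantile normalization. Quantile normalization gave positive values for miR-30a-5p (0.41), both miR-30c probes (0.30 and 0.26) and miR-30d (0.15), and -0.01 for miR-30b.

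The signs of the bright members changed with single arrays. All 5 bright names were lowest on Tsc1 cKO 4 and second lowest on Ctrl 4, also relative to background. Bright names outside the family behaved alike on Tsc1 cKO 4, which held the lowest value of 78 of 89 (87.6%). Their median there was 1.56 log2 units above background, against 2.21 to 2.75 on the other arrays, and that of the bright miR-30 names was 1.90 against 2.57 to 3.69. Without Tsc1 cKO 4 all 5 bright members had a positive fold change (median 0.34), while the 94 bright names together had a median of -0.00. Leaving out Ctrl 2 also gave positive values for miR-30c-1 (0.041), miR-30c-2 (0.11) and miR-30d (0.037), and leaving out Ctrl 1 for miR-30c-1 (0.077). miR-30a-5p turned negative without Ctrl 4 (-0.067), Tsc1 cKO 1 (-0.031) or Tsc1 cKO 2 (-0.034). The labels give Tsc1 cKO 3 and Tsc1 cKO 4 scanner numbers of their own. On the 6 arrays that share a number the fold changes of the bright members were 0.66 for miR-30a-5p, 0.66 and 0.63 for the miR-30c copies, 0.28 for miR-30b and 0.28 for miR-30d. For these 2 arrays scanner number and mouse cannot be told apart. Those 6 arrays hold all Ctrl mice but only Tsc1 cKO 1 and 2, both of the brighter set. Array brightness thus differed between the groups there. Within mice 1 and 2 of both groups miR-30a-5p had 0.46 and the miR-30c copies 0.24 and 0.16. In that set miR-30b had -0.20 and miR-30d -0.11. With both arrays numbered 4 left out, a choice made after seeing these values, miR-30a-5p (0.26) and the miR-30c copies (0.14 and 0.09) were positive and miR-30b (-0.29) and miR-30d (-0.08) negative. The intervals of the bright members reach down to -1.54 (miR-30b) and up to 0.99 (miR-30c-1) on the log2 scale. For each member this fit, which has no block, does not tell apart the changes within its own interval. With replicate number as a block, a pairing that the labels do not state, limma p values of the bright members were lower. The lowest was that of miR-30b, 0.0645 unadjusted (adjusted 0.473), against 0.443 unadjusted without the block.

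**Figure D2:**
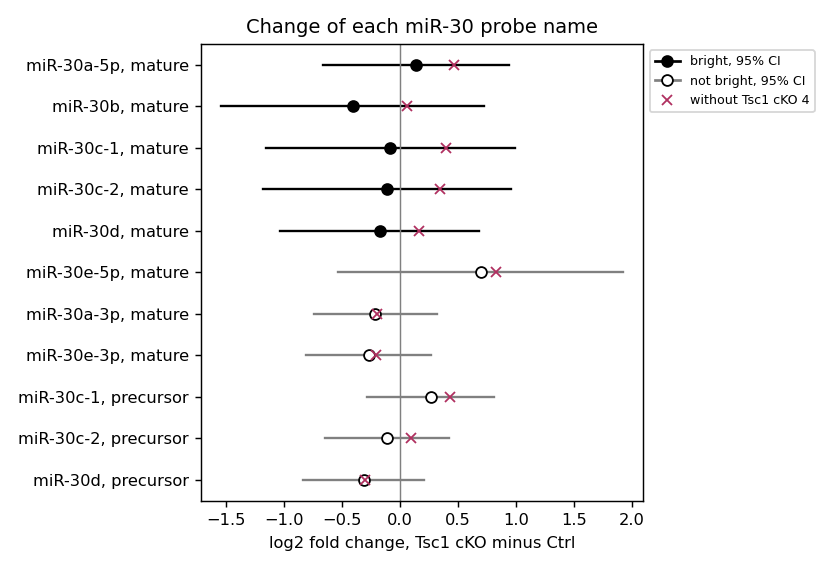
Log2 fold change, Tsc1 cKO minus Ctrl (horizontal axis), of the 8 mature and 3 precursor names (vertical axis), with 95% intervals from limma over 4 arrays per group; filled points are bright names and crosses give the value without Tsc1 cKO 4. Every interval spans 0, and for the 5 bright names the cross lies to the right of the point and above 0.

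Changes were then compared between members. Levels of different probes cannot be set against each other, so only the change of their within-array difference was tested, for the 10 pairs of stems (the 5p or unlabelled names, with both miR-30c copies averaged), by 2-sided exact permutation over all 70 assignments of the 8 arrays. Of the 10 pairs 0 had p under 0.05, where 0.0286 is the smallest p possible. The lowest p was 0.0571, for miR-30a against miR-30b and against miR-30d (adjusted over the 10 pairs, p = 0.286 for both by the exact permutation test). The miR-30a minus miR-30b difference ran from -1.89 to -1.07 in Ctrl and from -1.23 to -0.52 in Tsc1 cKO, a shift of 0.55 toward miR-30a. The shift was 0.66 in the brighter and 0.44 in the dimmer set, and 0.41 when Tsc1 cKO 4 was left out. Against miR-30d it was 0.32, with 0.56 and 0.07 in the sets. The genomic neighbours miR-30b and miR-30d differed from each other in fold change by -0.23 (exact permutation p = 0.229). Pairs with miR-30e had the widest shifts (-0.55 to -1.10 for the other member minus miR-30e), but they rest on a probe at background.

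Arms and copies of a stem were tested in the same way by limma over all 184 such pairs in both tables, of which 0 passed (0%) and 8 had unadjusted p under 0.05 (4.35%), 5 of them upward (2.72%). The changes were above 0 for 88 (47.8%) and below 0 for 96 (52.2%), against 2 and 2 of the 4 miR-30 pairs. The order of the names set which was subtracted, so these signs carry no common direction over pairs. The groups did not overlap for 3 of the 184 (1.63%) and for 0 of the 4. The mature probes of the 2 miR-30c copies kept a nearly fixed distance on each array, -0.78 to -0.33 in Ctrl and -0.65 to -0.29 in Tsc1 cKO. Its change between the groups was 0.02 (SE 0.13, 95% interval -0.28 to 0.33). The 3p minus 5p difference changed by -0.35 (SE 0.36) for miR-30a and by -0.96 (SE 0.53, adjusted p = 0.855 by limma) for miR-30e, each with at least 1 arm at background. Without Tsc1 cKO 4 the miR-30a value was -0.66 (adjusted p = 0.724 by limma), without Tsc1 cKO 1 it was -0.13 and without Ctrl 4 -0.17. The miR-30e value was -0.51 without Ctrl 3.

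The precursor probes gave little signal. Relative to background the means were 0.97 log2 units for miR-30c-1, just short of the limit for a bright name, 0.03 for miR-30c-2 and -0.12 for miR-30d. Precursor miR-30c-1 had intensities of 49634, 68025, 36791 and 56294 in Ctrl 1 to 4 and 76909, 70983, 61064 and 43754 in Tsc1 cKO 1 to 4. Tsc1 cKO 4 was again the lowest of its group, and the groups overlapped. The log2 fold change was 0.27 (SE 0.25, 95% interval -0.28 to 0.81, adjusted p = 0.999 by limma), with 0.35 in the brighter set, 0.18 in the dimmer set. Leaving out single arrays moved it between 0.10 (without Ctrl 3) and 0.43 (without Tsc1 cKO 4), with 0.40 without Ctrl 2 and 0.16 without Tsc1 cKO 1. For miR-30c-2 and miR-30d, at background, the log2 differences were -0.11 (SE 0.24) and -0.31 (SE 0.24). limma called 0 of 274 precursor names (0%), and 0 of the 3 members had unadjusted p under 0.05, against 7 of 274 (2.55%). The groups overlapped for all 3, while they did not for 3 of 274 (1.09%). Of the 3 members 1 was above 0 and 2 were below, against 112 (40.9%) and 162 (59.1%) of 274.

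**Figure D3:**
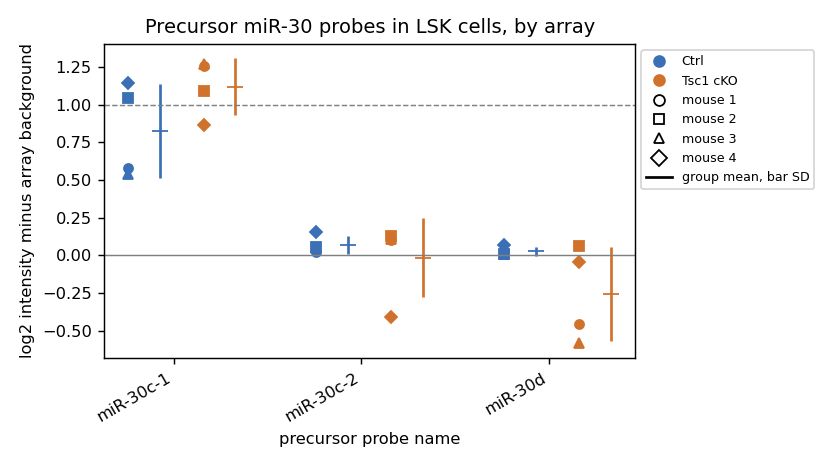
Log2 intensity of the 3 precursor miR-30 probe names minus the background of the array (vertical axis), by probe name (horizontal axis). Symbols are single mice, crosses with bars group means with SD (n = 4); the solid line is background and the dashed line the limit for a bright name. Precursor miR-30c-1 averages 0.97 and overlaps between groups, while miR-30c-2 and miR-30d average 0.03 and -0.12.

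The precursors of the 2 miR-30c copies gave the lowest unadjusted p of the 4 miR-30 arm and copy pairs. The miR-30c-1 minus miR-30c-2 difference was 0.56, 0.99, 0.49 and 0.99 log2 units in Ctrl 1 to 4. In Tsc1 cKO 1 to 4 it was 1.15, 0.96, 1.16 and 1.27. Of the Tsc1 cKO mice 3 lay above every Ctrl mouse, and Tsc1 cKO 2 lay among them. The change was 0.38 (SE 0.15, 95% interval 0.03 to 0.73, unadjusted p = 0.0385), with 0.28 in the brighter set, 0.47 in the dimmer set and 0.33 when Tsc1 cKO 4 was left out. It did not pass over the 184 pairs (adjusted p = 0.855 by limma), and the miR-30c-2 probe averaged 0.03 log2 units from background, with -0.41 on Tsc1 cKO 4.

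To ask whether mature and precursor signal moved apart, their within-array difference was tested by limma over 263 miRNAs matched by name, of which 0 passed (0%) and 17 had unadjusted p under 0.05 (6.46%; 3 upward, 1.14%, and 14 downward, 5.32%). The 3 members were among neither, and their groups overlapped, while groups did not overlap for 13 of 263 (4.94%). Of the members 2 were above 0 and 1 below, against 124 (47.1%) and 139 (52.9%) of 263. The mature minus precursor difference changed by -0.35 (SE 0.42, 95% interval -1.33 to 0.63) for miR-30c-1, by 0.01 (SE 0.33, -0.76 to 0.77) for miR-30c-2 and by 0.14 (SE 0.39, -0.77 to 1.05) for miR-30d. For miR-30c-1 the difference was 2.55, 1.99, 2.43 and 1.13 in Ctrl 1 to 4 and 2.12, 2.21, 1.63 and 0.75 in Tsc1 cKO 1 to 4. Both mice numbered 4 again had the lowest value of their group, and without Tsc1 cKO 4 the change was -0.04. It was -0.65 without Ctrl 4, -0.17 without Ctrl 1 and -0.21 without Ctrl 3. For the other 2 names the precursor lay at background. The miR-30d difference was highest on Tsc1 cKO 3 (3.94) and Tsc1 cKO 1 (3.86), the arrays where the precursor probe was lowest against background (-0.58 and -0.46).

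Other bright miRNAs were then ranked by the likeness of their pattern over arrays to a miR-30 name. Each bright name was centred on its own mean, and the root-mean-square difference from miR-30c-2 was taken over the 8 arrays. miR-30c-2 served as the reference because its mean over all arrays lay farthest above background, which ranks probes and not abundance. Over the Ctrl arrays alone miR-30b lay farther above background (3.44 against 3.36). The nearest of 89 bright names outside the family were miR-16-2 (0.12 log2 units), miR-17-5p (0.12), miR-24-1-3p (0.14), miR-106a (0.15) and miR-106b (0.16). miR-30c-1 stood at 0.15 (rank 5 of 93 bright names), miR-30d at 0.23 (rank 17), miR-30b at 0.25 (rank 19) and miR-30a-5p at 0.30 (rank 30), against a median of 0.44. These profiles share array brightness. The 5 neighbours were chosen for likeness to miR-30c-2 over these 8 arrays. Log2 fold changes near its own (-0.11) follow from that choice, and they lay between -0.15 and 0.10.

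**Figure D4:**
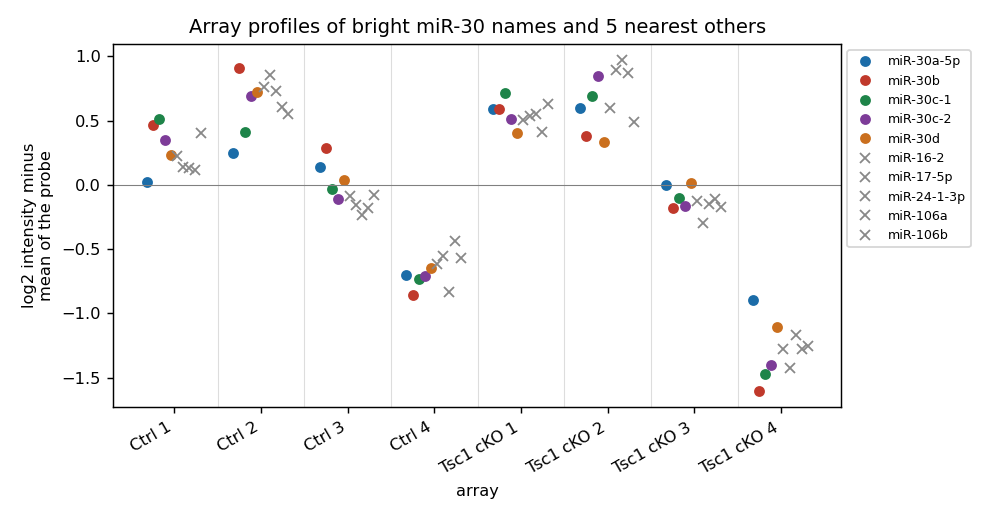
Log2 intensity minus the mean of the probe over arrays (vertical axis) on each array (horizontal axis) for the 5 bright miR-30 names (filled circles) and the 5 nearest other names (grey crosses). All 10 names have their lowest value on Tsc1 cKO 4, and miR-30a-5p has the highest value of the miR-30 names there. The grey names were chosen for likeness over these same arrays, so their low value there follows from the choice.

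Related miRNAs were taken from lists. The miR-384 probe, whose 5p strand shares the miR-30 seed though the file names no arm, was not bright and had a log2 difference of -0.02. Other miRNAs repressed by Myc gave 39 mature names, of which 35 had a negative and 4 a positive fold change (median -0.55). Of all 433 mature names 281 were negative (64.9%, median -0.04). Among the 23 bright names of the Myc list 19 were negative (median -0.44), against 76 of all 94 bright names (median -0.24). Of the 39 names 0 passed. At unadjusted p under 0.05 there were 9 of the 39, against the 4.39% of all mature names. Among these 9 were numbered copies of the same stem (let-7a-1 and let-7a-2, let-7c-1 and let-7c-2, miR-125b-1 and miR-125b-2). The names are thus not independent. The list also held more bright names, 23 of 39 against 94 of 433. The blood and LSK markers, some of which are the same names as on the Myc list, had 19 of 22 below 0 (median -0.50), against the same 64.9%. Of the 10 bright markers 9 were negative (median -0.49), against the 76 of 94 bright names (median -0.24). Of these 22 names 5 had unadjusted p under 0.05, against the same 4.39%. The part of these markers in the values of the Myc list was not tested. The lowest bright values were let-7c-2 (-1.03, SE 0.41) and let-7a-2 (-1.01, SE 0.41), both of a family that restrains proliferation, and the highest were miR-195 (0.12, SE 0.46) and miR-23a (0.12, SE 0.45). Beside them the bright miR-30 names had a median of -0.11, and the difference between the lists was not tested. All list values are as deposited over every array. None is given here without Tsc1 cKO 4 or under another scaling, although both changed the signs of the miR-30 names.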

How the data were processed

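Total RNA of 4 Ctrl and 4 Tsc1 cKO mice (5 µg each) was labelled with a biotinylated random octamer primer and read on 1-colour arrays, per the labels. The deposited intensity tables, mature and precursor, hold linear values; the file headers, a template text, call them normalized, and how is not stated in them. Each value was a multiple of 0.5, and the series' value table equalled the mature table. Values were taken as log2(value + 1) and probe rows of a name were averaged. R 4.3.3 with limma 3.58.1 (lmFit, eBayes, no block, Benjamini-Hochberg threshold 0.05) was fitted over each whole table, over mature minus precursor differences and over pairs sharing a stem; the methods were tested on simulated data. Alternatives were the scaling, pseudocount, variance trend, probe handling, bright names alone, replicate and background blocks, scanner and leaving out mice. Member pairs used exact permutation. Figures used Python 3.11.15 and matplotlib 3.10.9. All 8 mature and 3 precursor names are reported; the 5 nearest profiles and up to 4 bright related names (2 highest, 2 lowest fold changes) were taken by rule. Members and lists were chosen with earlier results of these data known. The number of arrays limits the precision.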

Additional observations from a re-analysis of the deposited data

Results flagged for a closer look

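The miR-30b minus miR-30d difference of Ctrl 4 was -0.12 log2 units, against 0.28 to 0.34 in the other 3 Ctrl mice, a gap of 0.864 of the range of the group. It was the single one of 56 groups of 4 values examined in which an array lay this far from the rest, where chance gives about 1 in 20. The lowest value of the Tsc1 cKO mice, -0.41, was also that of mouse 4. The cause was not tested.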

How the results depend on the processing

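No miR-30 value had an adjusted p under 0.05 in the settings run, and the counts of called mature names, precursor names, form differences, stem pairs and member pairs were 0 in every setting run. With the replicate number as a block, not run for member pairs, the other 4 counts were 0 as well. The lowest adjusted p by limma was then 0.0581 over mature names, and it was 0.473 for miR-30b. Same-numbered mice correlated by 0.09 to 0.35 in their deviations. Of the 8 samples 5 correlated best with their own number, each having only the 4 mice of the other group to match. The exact permutation p of miR-30a minus miR-30b was 0.0286, unadjusted, after quantile normalization (0.43) and without Ctrl 4 (0.69), with adjusted p of 0.286 and 0.143. That of miR-30b minus miR-30c was also 0.0286 without Ctrl 4 (-0.41, adjusted 0.143). Some single names had unadjusted p under 0.05 by limma. For miR-30a-5p it was 0.0134 after quantile normalization and 0.0256 in samples 1-2 alone (adjusted 0.462 and 0.375). For precursor miR-30c-1 it was 0.00536 after quantile normalization (adjusted 0.759). It was 0.0406 for miR-30e-5p without Ctrl 1 (adjusted 0.998) and 0.0495 for precursor miR-30d without Tsc1 cKO 2 (adjusted 0.967). Among pairs limma gave 0.0406 for miR-30a-3p minus miR-30a-5p after quantile normalization and without Tsc1 cKO 4 (adjusted 0.917 and 0.724). For miR-30e-3p minus miR-30e-5p it was 0.0305 without Ctrl 1 (adjusted 0.896). For the precursor miR-30c copies it was 0.0125 after quantile normalization (adjusted 0.917). That p stayed under 0.05 without Ctrl 2, Ctrl 4 or Tsc1 cKO 2, and exceeded it without any other single mouse. Leave-one-out aside, 330 values and counts kept their direction and side and 23 values changed sign. Quantile normalization gave 0.30 and 0.26 for mature miR-30c-1 and miR-30c-2 and 0.15 for miR-30d. Samples 1-2 alone gave -0.00040 for miR-30e-5p, 0.24 and 0.16 for the miR-30c copies, 0.066 for precursor miR-30c-2, 0.46 for miR-30a minus miR-30e and 0.20 for miR-30c minus miR-30e. Samples 3-4 alone gave -0.17 for miR-30a-5p, -0.083 for miR-30c-2 mature minus precursor, -0.032 for the mature copy difference and -0.15 for miR-30c minus miR-30d. Tsc1 cKO 3 and 4 carry other scanner numbers in the labels; the 6 arrays that share one gave 0.66 and 0.63 for the miR-30c copies, 0.010 for miR-30a-3p, 0.28 for miR-30d, 0.28 for miR-30b, 0.23 for precursor miR-30c-2 and 0.14 for miR-30c-1 mature minus precursor. Of the Tsc1 cKO mice those 6 arrays hold only 1 and 2, both of the brighter set, so array brightness differed between the groups. Leaving out both arrays numbered 4 gave 0.14 and 0.087 for the copies and 0.065 for precursor miR-30c-2. When each mouse was left out in turn the ranges were -0.067 to 0.47 for miR-30a-5p, -0.76 to 0.060 for miR-30b, -0.34 to 0.39 and -0.41 to 0.34 for the miR-30c copies and -0.42 to 0.16 for miR-30d. They were 0.15 to 1.16 for miR-30e-5p, 0.10 to 0.43 for precursor miR-30c-1, -1.33 to -0.51 for miR-30e-3p minus miR-30e-5p, -0.24 to 0.10 for precursor miR-30c-2, -0.22 to 0.24 and -0.062 to 0.47 for the form differences of miR-30c-2 and miR-30d, -0.064 to 0.086 for the mature copies, -0.98 to 0.067 for miR-30a minus miR-30e and -0.051 to 0.20 for miR-30c minus miR-30d. The causes were not tested. With probe rows kept apart no form or pair difference could be formed, among bright names the dim members drop out, and in subsets of 6 or fewer arrays the permutation test cannot pass.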
